A study of Mus musculus with 18 samples.

Results

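The interferon response genes described here are 44 mouse genes that cells switch on through interferon receptors, measured in dendritic and other myeloid cells with and without an active BRAFV600E allele. Members were found by gene symbol among array probe sets that carry 1 symbol, taking the probe set with the highest mean where a gene had several. Of the 44 genes, 40 were measured in this way among 19752 genes in all, and all of these 40 were among the 15365 genes that passed the filter on low values. Gbp2, Igtp and Isg15 lie only on probe sets that name several genes, and Ifi44 had no probe set of its own symbol, so these 4 were not analysed here. The filter level is the 30th percentile of each array: 32 members lay above it on all 18 arrays, Ifit1, Ifit2 and Ifit3 on 16, Cxcl9 on 16, Rsad2 and Rtp4 on 17, Ddx60 on 11 and Mx2 on 6.

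Type I interferons bind a receptor whose kinases, Jak1 and Tyk2, set off the complex of Stat2 and Irf9 that binds interferon-stimulated response elements in target promoters. Type II interferon acts through another receptor and on gamma-activated sites, and Irf1 and the chemokine Cxcl9 are well-known targets of it. The induced proteins block viral entry, replication and translation, raise the sensors that detect viral nucleic acid, and in dendritic cells accompany maturation and the recruitment of T cells.

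The series asks how RAF, MEK and ERK signalling acts on dendritic cells in Langerhans cell histiocytosis. The arrays fall into 8 groups, WT and BRAF in 4 populations. BRAF mice carried the BRAFV600E(CA-flox) allele together with CD11c-Cre, so that recombination was driven by the CD11c promoter, and WT mice were littermates that carried the same floxed allele and no Cre. The sources used here do not name the strain. BMDC were grown from femoral marrow of mice of 5 weeks, received no treatment and were sorted as live CD11c+CD11b+ cells, with 3 arrays per genotype. CD11b+ cells of liver, and both CD11b+ and CD103+ cells of lung, were sorted from unmanipulated mice of 14 weeks, with 2 arrays per genotype and population, and no CD11c gate is given for them, so the share of these cells that carried the recombined allele is not known. The labels do not say that replicates came from separate animals or cultures, so part of the spread among the arrays at hand may be technical. The main fit pooled the spread of each gene over all 18 arrays and 8 groups and moderated it across genes. A p-value therefore does not measure the spread of the compared arrays alone, and the number of arrays limits the precision. The median standard deviation of the members within a group was unequal. It was 0.17 in WT BMDC and WT lung CD11b+ cells, 0.46 in BRAF BMDC and 0.47 in BRAF lung CD103+ cells.

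All values are log2 of the deposited intensity, differences are BRAF minus WT with their standard error (SE), and a gene was called when its limma p-value, adjusted by Benjamini and Hochberg over the 15365 genes, was under 0.05. Array medians ran from 93.7 to 113.2 intensity units. A pair of arrays had a narrow spread of log2 values. The interquartile range was 1.9 for replicate 2 of the BRAF BMDC and 1.92 for replicate 3 of the WT liver cells, where the other 16 arrays had 2.41 to 2.99. Some results that rest on the 2 arrays of narrow spread are also given without them, and others are not. The mean log2 level of 13 conventional dendritic cell markers lay between 8.91 and 11.13 on every array, and 12 or 13 of them were above the filter level on all arrays of each group. The mean of 10 macrophage markers was 10.44 to 10.68 in WT BMDC, where that of the dendritic cell markers was 9.67 to 9.73. It was 10.15 to 10.42 in WT liver (dendritic 10.11 to 10.36) and 10.54 to 11.04 in WT lung CD11b+ cells (dendritic 10.46 to 10.53). In WT lung CD103+ cells it was 6.87 to 8.39 (dendritic 11.01 to 11.08). These levels do not settle which cells the sorts held. In bulk samples, fewer cells of a type and less RNA per cell cannot be told apart.

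Across the 40 members, BRAF and WT differed in opposite directions in different populations. In BMDC the median difference was 0.56 (34 members positive, 6 negative, with 50.4% of all genes positive), in liver CD11b+ cells -0.73 (4 positive, 36 negative, with 43.7% of all genes negative), in CD11b+ cells of the lung 0.09 (24 positive, 16 negative, with 50.5% of all genes positive) and in its CD103+ cells 0.48 (36 positive, 4 negative, with 35% of all genes positive). The medians over all 15365 genes in the same order were 0.00, 0.08, 0.00 and -0.08. Without the 2 arrays of narrow spread the member median was 0.72 in BMDC and -0.89 in liver. Both a positive difference in BMDC and a negative one in liver were seen for 31 of the 40 members, against 32.7% of all genes. For 29 members the difference was positive in lung CD103+ cells as well, against 12.8% of all genes. The count of 31 was 30 to 34 under 11 other ways of processing the arrays. Other filters, trend and robust variance and fits of only the groups compared cannot change a difference, so their count of 31 was fixed. The count was 33 with quantile normalization, 30 with median centring and 34 without the 2 arrays of narrow spread. Single arrays were not left out in turn for this count.

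**Figure D1:**
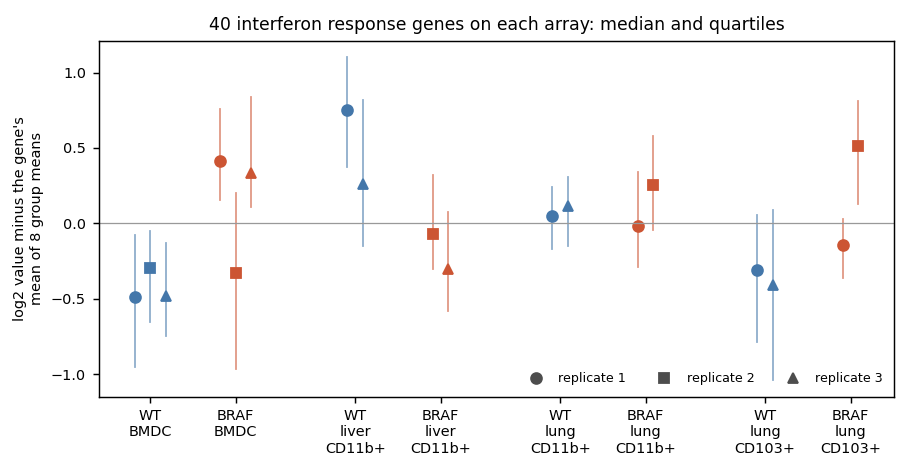
Position of the 40 interferon response genes on each array. The y axis is the log2 value minus the gene's mean over the 8 group means, points are the median over the 40 genes (shape gives the replicate number, colour the genotype) and bars run from the lower to the upper quartile. WT BMDC lie low at -0.49 to -0.29 and WT liver high at 0.26 and 0.75, while 1 of the 3 BRAF BMDC arrays lies at -0.33 and the other 2 at 0.33 and 0.42.

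Single arrays stood apart within some groups, as the plot of array positions shows. The median member lay at 0.42, -0.33 and 0.33 relative to its mean over groups on BRAF BMDC replicates 1, 2 and 3, and at -0.49, -0.29 and -0.48 on the WT BMDC arrays. Replicate 2, an array of narrow spread, was thus within the WT range, and it was the lowest of the 3 BRAF arrays for 33 of 40 members, against 50% of all genes. Replicates 1 and 3 were both above all WT arrays for 34 members (14.8% of all genes), and replicate 2 was above all WT arrays for 21 (43.2%) and below all of them for 13 (46.3%). In lung CD103+ cells BRAF replicate 2 lay at 0.51 and replicate 1 at -0.14, with the WT arrays at -0.31 and -0.41. BRAF replicate 2 exceeded replicate 1 for 35 members (56.9% of all genes) and both WT arrays for 38 (24.7%), while replicate 1 exceeded both WT arrays for 19 (26.3%).

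**Figure D2:**
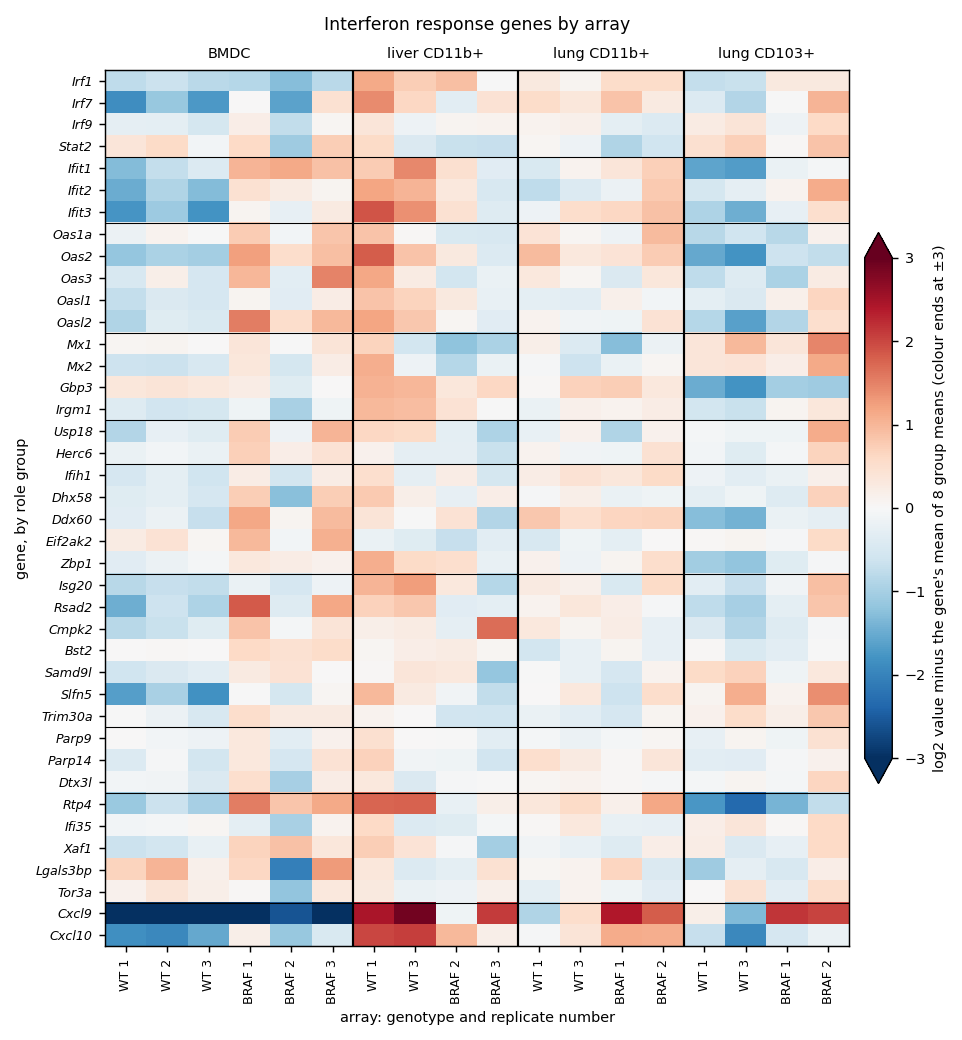
The 40 genes (rows, grouped by role with lines between the 10 role groups) on the 18 arrays (columns). Colour is the log2 value minus the gene's mean over the 8 group means, with the scale ending at 3 in each direction. The Ifit1, Ifit3, Oas2 and Rtp4 rows are blue in WT BMDC and WT lung CD103+ cells and red in WT liver, and Cxcl9 is low on all 6 BMDC arrays.

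Among the transcription factors, Irf7, the factor that amplifies type I interferon production and is itself interferon-induced, took the direction of most members, with no call in any population. Its log2 level was 6.17, 6.90 and 6.30 on WT BMDC replicates 1, 2 and 3 and 8.03, 6.41 and 8.48 on the BRAF replicates. The BRAF arrays 1 and 3 were above all WT arrays and replicate 2 was inside the WT range. The difference was 1.18 ± 0.45 (adjusted p = 0.59), and without BRAF replicate 2 it was 1.80 and was called. In liver Irf7 was at 9.44 and 8.65 in WT and 7.70 and 8.47 in BRAF, lower on both BRAF arrays (-0.96 ± 0.55, adjusted p = 0.422). In lung CD103+ cells Irf7 was at 7.62 and 7.15 in WT and 8.02 and 9.05 in BRAF, without overlap (1.15 ± 0.55, adjusted p = 1.0). In lung CD11b+ cells it was at 8.56 and 8.37 in WT and 8.87 and 8.30 in BRAF, with overlap.

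Irf9 and Stat2, which act in the type I complex, were not called in any population, and the signs of several of their differences rested on single arrays. Irf9 was at 9.03, 9.03 and 8.78 in WT BMDC and 9.51, 8.56 and 9.37 in BRAF BMDC, at 9.66 and 9.15 against 9.39 and 9.41 in liver, at 9.41 and 9.47 against 9.02 and 8.90 in lung CD11b+ cells, and at 9.55 and 9.69 against 9.16 and 9.92 in lung CD103+ cells. The genotypes overlapped in BMDC, liver and lung CD103+ cells, and the differences lay between -0.48 ± 0.30 in lung CD11b+ cells and 0.20 ± 0.25 in BMDC. Without BRAF BMDC replicate 2, the array of narrow spread, Irf9 stood at 0.49 in BMDC. Stat2 was at 9.35, 9.56 and 8.89 in WT BMDC and 9.57, 7.90 and 9.71 in BRAF BMDC, and at 9.55 and 8.55 against 8.31 and 8.28 in liver. It was at 9.04 and 8.82 against 8.08 and 8.39 in lung CD11b+ cells and at 9.46 and 9.69 against 9.01 and 9.84 in lung CD103+ cells. Stat2 was lower on both BRAF arrays in liver and lung CD11b+ cells, and its 4 differences ran from -0.75 ± 0.49 in liver to -0.15 ± 0.49 in lung CD103+ cells. The Stat2 difference in BMDC, -0.20 ± 0.40, was 0.37 without BRAF replicate 2, and that in lung CD103+ cells was 0.26 without BRAF replicate 1, so neither sign was stable.

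Irf1, a target of gamma interferon, differed from Irf7 in BMDC. It was at 8.05, 8.19 and 8.01 in WT BMDC and at 7.97, 7.54 and 8.02 in BRAF BMDC, with overlap (-0.24 ± 0.22). In liver it was at 9.95 and 9.55 in WT and 9.72 and 8.80 in BRAF, also with overlap. In lung CD103+ cells Irf1 was at 8.10 and 8.15 in WT and at 9.12 and 9.10 in BRAF, higher on both BRAF arrays by 0.99 ± 0.27 with little spread inside each genotype (adjusted p = 0.294). In lung CD11b+ cells it was at 9.12 and 8.91 in WT and 9.38 and 9.36 in BRAF (0.36 ± 0.27). On the array Irf1 has 2 probe sets, with mean log2 levels of 8.72 and 6.82, and values are from the former; averaging both moved the difference in lung CD103+ cells to 0.50.

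In BMDC, 5 members were called and all 5 were higher in BRAF: Rtp4, Oas2, Ifit1, Ifit3 and Ifit2. Of all genes tested 0.521% were called in BMDC, and 0.332% were called higher. The 5 genes were higher by 1.50 to 2.08 on the log2 scale, and a further 15 members were higher at an unadjusted limma p under 0.05 without a call, so that 20 in all were below that level, against 2.26% of all genes. All BRAF arrays were above all WT arrays for 20 members, where 6.99% of all genes met that condition, and below all of them for 1, Gbp3 (9.08% of all genes).

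The IFIT proteins bind viral RNA that lacks the methylation of host caps and block its translation, and all 3 measured Ifit genes rose in BRAF BMDC. Ifit1 was at 5.83, 6.41 and 6.71 on the WT arrays and at 8.16, 8.27 and 8.01 on the BRAF arrays. The BRAF arrays were close together and all above the WT arrays, replicate 2 included. Ifit1 rose by 1.83 ± 0.27, or 3.56-fold (adjusted p = 0.00506). Ifit3 was at 5.51, 6.17 and 5.48 in WT and 7.34, 7.01 and 7.53 in BRAF, without overlap, and rose by 1.58 ± 0.30 (adjusted p = 0.0274). Ifit2 was at 5.42, 6.0 and 5.62 in WT and 7.37, 7.16 and 7.0 in BRAF, also without overlap, and rose by 1.50 ± 0.30 (adjusted p = 0.0352). Ifit3 has a near-identical neighbour, Ifit3b, so its signal may hold both.

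The Ifit genes lie side by side on chromosome 19, and the promoters of Ifit1 and Ifit3 hold the same pair of response element matches. They are shown because the pathway is known to act through response elements of this kind. Whether these matches act in the cells measured here was not tested. Capitals mark each match to the core of the interferon-stimulated response element, TTTC followed by any 2 bases and TTTC, or GAAA, any 2 bases and GAAA on the opposite strand. The sequences are the RefSeq promoters on build GRCm38.p6, 5′ to 3′ in the direction of the gene and ending at the base before the start of transcription, with Ifit1 at chr19:34640639-34640888 and Ifit3 at chr19:34583279-34583528, both on the + strand.
Ifit1: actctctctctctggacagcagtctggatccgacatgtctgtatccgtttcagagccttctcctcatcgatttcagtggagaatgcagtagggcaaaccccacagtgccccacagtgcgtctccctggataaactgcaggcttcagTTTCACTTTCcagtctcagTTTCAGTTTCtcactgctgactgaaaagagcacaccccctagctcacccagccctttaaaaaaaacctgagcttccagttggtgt
Ifit3: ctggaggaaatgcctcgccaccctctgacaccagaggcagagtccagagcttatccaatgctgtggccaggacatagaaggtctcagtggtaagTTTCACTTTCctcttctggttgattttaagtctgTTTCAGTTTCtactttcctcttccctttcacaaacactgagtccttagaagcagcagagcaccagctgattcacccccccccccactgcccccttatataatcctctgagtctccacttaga
Counted from the start of transcription, the matches of Ifit1 lie at -104 to -95 and -85 to -76, and those of Ifit3 at -156 to -147 and -122 to -113. The letters of the first match are the same in both genes, and so are those of the other. Ifit2, whose 2 start sites lie on the same chromosome, had no match in either window, which says only that these letters are not within the bases searched.

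Of the 44 genes 34 had a promoter entry of 300 bases (250 before the start and 50 after). Dhx58, Mx1, Mx2, Oas2, Parp14, Parp9, Rtp4, Tor3a, Usp18 and Zbp1 had none. The response element core occurred on either strand, overlapping matches counted, in 18 of these 34 (52.94%, Wilson 95% interval 36.74 to 68.55) and in 3.99% of the 27025 genes with an entry. TTCNNNGAA, the core of the gamma-activated site, occurred in 8 of 34 (23.53%) and in 9.55% of all genes. To show the letters behind these counts, matches in 6 further members and the gamma-activated core of Irf1 are given with up to 20 bases on each side, capitals marking the match. Oas1a is at chr5:120907526-120907565, Oas3 at chr5:120777705-120777754, Rsad2 at chr12:26456543-26456592 and Cxcl10 at chr5:92349073-92349122, all on the - strand, and Gbp3 at chr3:142559979-142560034, Ddx60 at chr8:61928048-61928086 and Irf1 at chr11:53769904-53769952 on the + strand.
Oas1a: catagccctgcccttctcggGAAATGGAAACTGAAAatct
Oas3: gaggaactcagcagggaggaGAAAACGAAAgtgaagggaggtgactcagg
Rsad2: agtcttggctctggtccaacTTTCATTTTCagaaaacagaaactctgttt
Cxcl10: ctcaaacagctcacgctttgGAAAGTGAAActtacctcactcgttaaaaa
Gbp3: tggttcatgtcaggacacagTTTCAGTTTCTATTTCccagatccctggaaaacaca
Ddx60: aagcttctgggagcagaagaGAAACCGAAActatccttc
Irf1: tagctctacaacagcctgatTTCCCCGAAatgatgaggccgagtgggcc
The matches of Oas1a lie at -20 to -11 and -14 to -5, that of Oas3 at -75 to -66, that of Rsad2 at -120 to -111 and that of Cxcl10 at -213 to -204. In Oas1a and Gbp3 the capitals hold 2 overlapping matches. A match is a description of the sequence and not a measured site. Among tested members with an entry, the median difference in BMDC was 0.58 in the 15 with a response element match and 0.60 in the 15 without, and in liver -0.75 and -0.61. Counting only matches in the 250 bases before the start, the medians were 1.00 in 13 with a match and 0.54 in 17 without in BMDC, and -0.91 and -0.49 in liver, so the size of the gap depended on the window.

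The oligoadenylate synthetases make the messenger that activates RNase L, which cuts viral RNA. In BMDC all 5 members of the family had a positive difference and 1, Oas2, rose. Oas2 was at 7.29, 7.51 and 7.44 in WT and at 9.68, 8.98 and 9.34 in BRAF, far apart and without overlap, and rose by 1.92 ± 0.27, or 3.79-fold (adjusted p = 0.00404). Oasl2, an Oas-like protein, stood at 8.45 to 8.98 in WT and 9.89 to 10.89 in BRAF (1.59 ± 0.34, adjusted p = 0.06). Oas3, Oas1a and Oasl1 were at 1.00 ± 0.42, 0.53 ± 0.33 and 0.54 ± 0.20, and Oas1a and Oas3 overlapped between genotypes. Oas1a has a near-identical copy, Oas1g, so its signal is uncertain.

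Rtp4, a chaperone that binds viral RNA and is induced by type I interferon, had the largest difference of any member in BMDC. It was at 6.81, 7.27 and 6.92 in WT and 9.45, 8.75 and 9.05 in BRAF, with all BRAF arrays well above the WT arrays. Rtp4 rose by 2.08 ± 0.28, or 4.24-fold (adjusted p = 0.00289).

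The other role groups had no call in BMDC. All 7 other antiviral effectors were positive and did not overlap between genotypes, from Rsad2 (viperin, which makes a chain-terminating nucleotide) at 1.88 ± 0.43 (adjusted p = 0.0772) and Slfn5 at 1.32 ± 0.40 to Isg20, an exonuclease, at 0.47 ± 0.32. Cmpk2, the mitochondrial nucleotide kinase next to Rsad2, stood at 1.01 ± 0.37, and Bst2 (tetherin, which holds budding virus at the membrane) at 0.51 ± 0.18. The sensors were positive too, Ddx60 at 1.13 ± 0.31 and Ifih1, the sensor MDA5, at 0.43 ± 0.26. Usp18, the protease that removes Isg15 from proteins and dampens the receptor, stood at 1.04 ± 0.36, and Herc6, a ligase that attaches Isg15, at 0.60 ± 0.23. The GTPases were nearer 0, with Mx2 at 0.60 ± 0.33, Mx1 at 0.19 ± 0.36, Irgm1 at 0.09 ± 0.22 and Gbp3 at -0.38 ± 0.20. Lgals3bp, Tor3a and Ifi35 were negative, and for each BRAF replicate 2 was the lowest of the 6 arrays, as for Lgals3bp at 8.48 against 10.68 to 11.79 on the others.

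In BMDC, the calls of Rtp4, Oas2 and Ifit1 were kept without any of the 6 arrays in turn (largest adjusted p = 0.0406). The number of members called was 3, these genes, without WT replicate 1, 2 or 3 or BRAF replicate 1 or 3, and 9 without BRAF replicate 2, when Cxcl10, Ddx60, Irf7, Oasl2 and Rsad2 were called and Ifit2 was not. With weights for array quality 32 members were called, and with array medians set equal 3. The weights were 5.39, 0.109 and 1.70 for BRAF replicates 1, 2 and 3, so that fit gave little say to replicate 2. All 5 tested T cell markers were positive in BMDC as well (median 0.42), with array means of the 6 measured at 6.10 to 6.14 in WT and 6.52 to 6.81 in BRAF and Cd3d and Cd3g below the filter level on all 6 arrays. Of the 13 conventional dendritic cell markers 8 were negative in BMDC (median -0.40, 5 lower at an unadjusted limma p under 0.05), with array means of 9.67 to 9.73 in WT and 8.91 to 9.46 in BRAF, and Ccr7, the receptor that guides dendritic cells to lymph nodes, fell by 1.93 on the log2 scale (adjusted p = 0.00464). The part of these cells in the result was not tested.

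In liver CD11b+ cells the direction was the opposite, and 1 member was called: Rtp4, which was lower in BRAF. Rtp4 was at 9.68 and 9.69 in WT and at 7.69 and 8.10 in BRAF, with no overlap, and fell by 1.79 ± 0.34 on the log2 scale, a 3.45-fold difference (adjusted p = 0.049). Of all genes tested 0.215% were called in liver and 0.0716% were called lower. With Rtp4, 20 members were lower at an unadjusted limma p under 0.05, against 4.15% of all genes lower at that level, and none was higher. Both BRAF arrays were below both WT arrays for 26 members (15.8% of all genes) and above both for 0 (22.7%).

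The IFIT, synthetase and chemokine groups had the highest medians in BMDC (1.58, 1.00 and 0.95) and the lowest in liver (-1.18, -1.08 and -1.58), where none of their genes was called. Ifit3 was at 9.15 and 8.64 in WT liver and at 7.72 and 6.89 in BRAF liver (-1.59 ± 0.37, adjusted p = 0.0981). Ifit2 was at 8.10 and 7.94 against 7.24 and 6.44 (-1.18 ± 0.37), and Ifit1 at 7.90 and 8.57 against 7.61 and 6.80 (-1.03 ± 0.33). All 3 Ifit genes were lower on both BRAF arrays, with replicate 3 the lower of the pair. Oas2 was at 10.26 and 9.31 in WT and 8.74 and 8.05 in BRAF, again without overlap (-1.39 ± 0.33, adjusted p = 0.114), and all 5 synthetase genes were lower on both BRAF arrays. The 4 GTPases were also lower on both, from Mx1 at -1.13 ± 0.44 to Gbp3 at -0.54 ± 0.25. Isg20 stood at -1.40 ± 0.39, Usp18 at -1.22 ± 0.44 and Xaf1, a pro-apoptotic interferon target, at -1.10 ± 0.36. The PARP9 module (Parp9, Parp14 and the ligase Dtx3l, which act as a complex in the interferon response) stood between -0.65 ± 0.32 and 0.04 ± 0.39.

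The chemokines Cxcl9 and Cxcl10, neighbouring genes that draw T cells through Cxcr3, were highest in WT liver among the 8 groups. Cxcl10 was at 11.03 and 11.10 in WT liver and at 9.98 and 9.19 in BRAF liver, without overlap (-1.48 ± 0.41, adjusted p = 0.171). Cxcl9 was at 11.96 and 12.40 in WT liver and at 9.38 and 11.60 in BRAF liver, both lower, with the BRAF pair far apart (-1.69 ± 0.63, adjusted p = 0.279). In BMDC Cxcl10 was at 7.18, 7.07 and 7.49 in WT and 9.19, 7.87 and 8.56 in BRAF, without overlap (1.29 ± 0.34, adjusted p = 0.171). Cxcl9 was low on all 6 BMDC arrays, at 5.58, 5.60 and 5.82 in WT and 6.16, 6.91 and 5.76 in BRAF, with overlap.

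The call of Rtp4 in liver did not withstand most changes: it was lost without any of the 4 arrays in turn (difference -1.99 to -1.59, adjusted p up to 0.214) and kept in 2 of 11 other alternatives. The number of members called was 0 without WT replicate 1 or 3 or BRAF replicate 3. It was 6 without BRAF replicate 2, when Ifit3, Isg20, Oas2, Samd9l and Xaf1 were called lower and Cmpk2 higher. Several marker lists of other cells were also lower in BRAF liver: all 5 tested T cell markers (median -0.79) and all 4 tested NK cell markers (-0.69) were negative, 6 of 7 B cell markers (-0.43) and 5 of 6 plasma cell markers (-1.10) as well, while all 5 classical monocyte markers were positive (1.22). The mean level of the 6 measured T cell markers was 6.23 to 6.57 on the WT liver arrays and 5.57 to 5.84 on the BRAF liver arrays, and Cd3d was below the filter level on all 4. The mean level of the 8 NK cell markers was 6.33 to 6.40 and 5.72 to 5.94, with Ncr1, Klrb1c, Gzma and Eomes below the filter level on all 4. The monocyte marker mean was 7.81 to 8.93 in WT and 9.28 to 9.99 in BRAF. That of the 6 plasma cell markers was 8.18 to 9.42 in WT and 7.26 to 7.56 in BRAF. Their lowest difference was -5.10, and 1 was called lower (0.0716% of all genes). Of the 4 tested mast cell and basophil markers 3 were negative and 1 positive (median -0.90), and 1 was called lower. The mean of the 6 measured was 6.05 to 6.08 in WT and 5.18 to 5.42 in BRAF, with Fcer1a and Ms4a2 below the filter level on all 4 arrays. Of the conventional dendritic cell markers 10 of 13 were negative in liver (median -0.31, 4 lower at an unadjusted limma p under 0.05, none called), with array means of 10.11 to 10.36 in WT and 9.65 to 9.74 in BRAF. The part of these cells in the result was not tested.

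**Figure D3:**
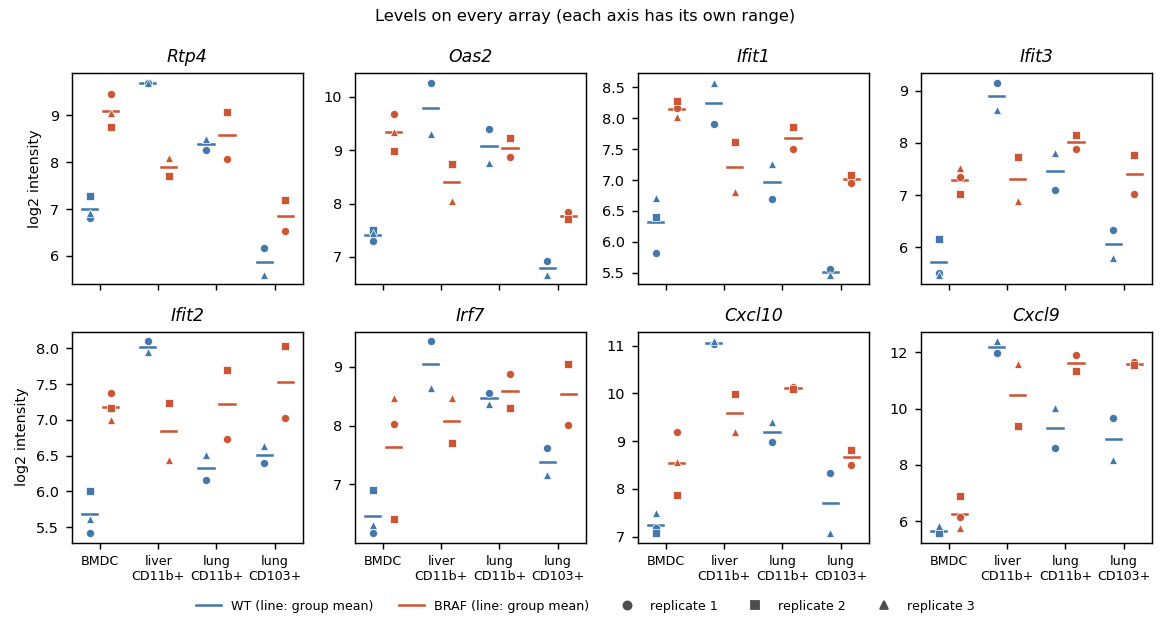
Log2 intensity of 8 interferon response genes on every array, by population (x axis) and genotype (colour), with the replicate number as the point shape and group means as lines; each gene has its own y axis range. Rtp4, Oas2, Ifit1, Ifit3 and Ifit2 are higher on all BRAF arrays than on all WT arrays in BMDC and in lung CD103+ cells, and lower on both BRAF arrays in liver; in BMDC the Irf7 value of BRAF replicate 2, at 6.41, lies among the WT values.

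Whether the genotype difference itself differed between BMDC and liver was tested as the difference of the 2 contrasts, and 5 members were called, all with a more positive difference in BMDC: Rtp4, Oas2, Ifit3, Ifit1 and Ifit2. Of all genes 0.137% were called in this test and 0.117% were called in the positive direction. The difference between the contrasts was 3.87 ± 0.44 for Rtp4 (adjusted p = 0.0011), 3.31 ± 0.43 for Oas2 (adjusted p = 0.00334) and 3.16 ± 0.47 for Ifit3 (adjusted p = 0.011). It was 2.86 ± 0.42 for Ifit1 (adjusted p = 0.011) and 2.68 ± 0.48 for Ifit2 (adjusted p = 0.0404). Rsad2 (2.95 ± 0.68), Cxcl10 (2.77 ± 0.54, adjusted p = 0.0699) and Oasl2 (2.72 ± 0.54) came next in size and were not called. The difference was positive for 37 of 40 members (45% of all genes) with a median of 1.28 (all genes -0.11), and 26 members had an unadjusted limma p under 0.05 in this direction, against 5.56% of all genes. It was negative for Lgals3bp, Tor3a and Ifi35.

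**Figure D4:**
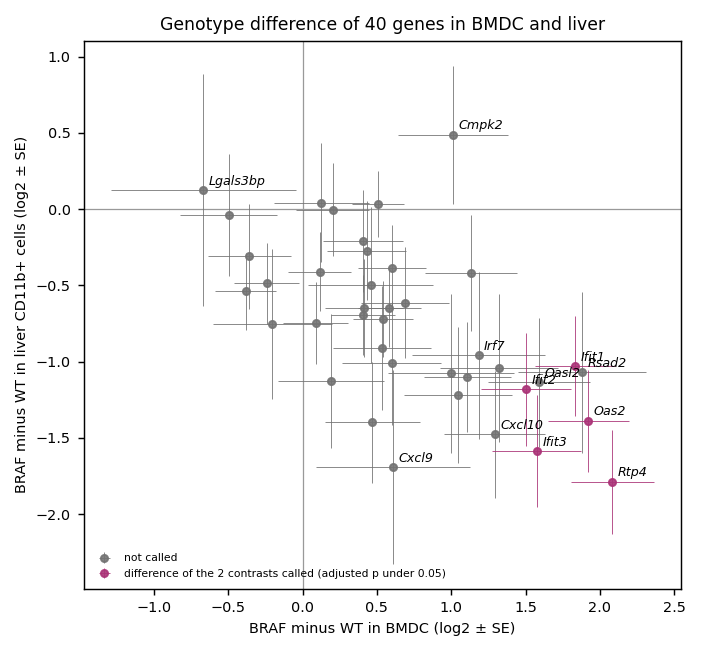
Genotype difference (BRAF minus WT, log2, bars are standard errors) of each of the 40 genes in BMDC on the x axis and in liver CD11b+ cells on the y axis. Magenta points are the 5 genes whose differences were called as unequal between the 2 populations, and 31 of the 40 points lie in the lower right, positive in BMDC and negative in liver.

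Rtp4 and Oas2 kept this call without each of the 10 arrays of the 2 populations in turn and under each of 11 other alternatives. Without single arrays the number of members called ran from 2 (without BRAF liver replicate 3, Oas2 and Rtp4) to 14 (without BRAF liver replicate 2). It was 3 without WT liver replicate 3 and 8 without BRAF BMDC replicate 2. Without both arrays of narrow spread it was 7 (Ifit3, Irf7, Mx2, Oas2, Parp14, Rsad2 and Rtp4), all 40 differences were positive and their median was 1.76. With quantile normalization 14 were called and the median was 1.66. A moderated F test of the genotype difference over all 4 populations called 4 members, Rtp4 (adjusted p = 0.00969), Oas2 (0.0272), Ifit1 (0.043) and Ifit3 (0.043), against 0.124% of all genes, and 24 members had an unadjusted p under 0.05 in it, against 9.1%.

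In lung CD103+ cells no member was called, in a comparison where limma called 0.0846% of all genes, and 16 members were higher in BRAF at an unadjusted limma p under 0.05 (2.39% of all genes). The members at the smallest p were Ifit1, Cxcl9 and Irf1. Ifit1 was at 5.56 and 5.47 in WT and 6.95 and 7.07 in BRAF, close pairs without overlap (1.50 ± 0.33, adjusted p = 0.142). Cxcl9 was at 9.68 and 8.18 in WT and 11.65 and 11.54 in BRAF, again without overlap (2.66 ± 0.63, adjusted p = 0.193). Ifit3 was at 6.34 and 5.80 against 7.02 and 7.78 (1.33 ± 0.37), and Ifit2 at 6.39 and 6.64 against 7.02 and 8.04 (1.02 ± 0.37), both higher on each BRAF array. Oas2 was at 6.93 and 6.66 against 7.84 and 7.70 (0.98 ± 0.33), Rtp4 at 6.17 and 5.60 against 6.53 and 7.18 (0.98 ± 0.34) and Cxcl10 at 8.32 and 7.08 against 8.50 and 8.81 (0.96 ± 0.41). None of these overlapped, and for Rtp4 and Cxcl10 the gap between the nearest arrays was small. Both BRAF arrays were above both WT arrays for 19 members (9.16% of all genes) and below both for 1, Samd9l (19.3% of all genes).

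The median difference of the members in lung CD103+ cells rested in part on 1 array. Leaving out BRAF replicate 2 gave 0.17, and leaving out BRAF replicate 1 gave 0.85. Macrophage markers were higher in the same comparison: all 10 measured were positive with a median of 2.32. For 9 of them both BRAF arrays were above both WT arrays (9.16% of all genes). Their mean level was 6.87 to 8.39 on the WT arrays and 9.07 to 10.48 on the BRAF arrays. Of the 5 classical monocyte markers 3 were positive and 2 negative (median 2.43). Their array means were 6.62 to 8.22 in WT and 8.84 to 10.06 in BRAF, with F13a1 below the filter level on both WT arrays. Of the 13 conventional dendritic cell markers 10 were negative (median -0.18), and 1 was called lower. All 4 tested NK cell markers were negative too (median -1.04). The part of these cells in the result was not tested.

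The genotype difference in lung CD103+ cells was also set against that in liver, a test that shares the liver arrays with the one of BMDC against liver. No member and no gene of all 15365 was called (0.0%), while 25 members had an unadjusted limma p under 0.05 in the positive direction (2.4% of all genes). The values were 4.35 ± 0.90 for Cxcl9 (adjusted p = 0.174), 2.92 ± 0.52 for Ifit3 (adjusted p = 0.0863), 2.76 ± 0.48 for Rtp4 (adjusted p = 0.0863) and 2.53 ± 0.46 for Ifit1 (adjusted p = 0.0988). The difference was positive for 37 members (39.2% of all genes), with a median of 1.30 (all genes -0.15). Without BRAF liver replicate 2, 11 members were called in this test, and without WT lung CD103+ replicate 1, 4 were.

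**Figure D5:**
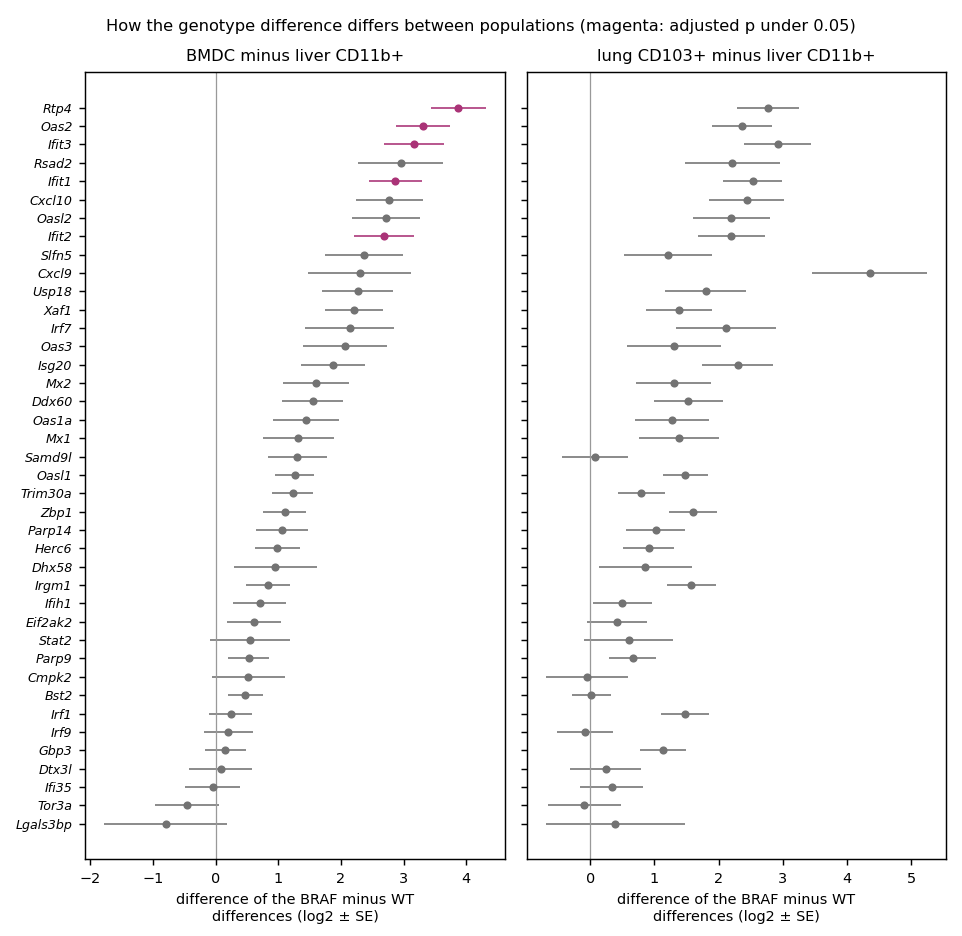
Difference of the genotype differences, BMDC minus liver on the left and lung CD103+ minus liver on the right (both in log2, bars are standard errors), for the 40 genes in the order of the left panel. The 5 magenta genes on the left, led by Rtp4 at 3.87, were called; none was on the right, where Cxcl9 is farthest from 0 at 4.35.

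In lung CD11b+ cells no member was called (limma called 0.338% of all genes) and 4 were higher at an unadjusted limma p under 0.05, both chemokines with Ifit2 and Ifit1, against 2.05% of all genes. Cxcl9 was at 8.61 and 10.03 in WT and at 11.90 and 11.33 in BRAF, without overlap (2.30 ± 0.63, adjusted p = 0.19). Cxcl10 was at 8.98 and 9.41 in WT and 10.14 and 10.10 in BRAF (0.92 ± 0.41), also without overlap. Ifit1 was at 6.69 and 7.25 against 7.50 and 7.86 (0.71 ± 0.33), and Ifit2 at 6.16 and 6.50 against 6.73 and 7.70 (0.89 ± 0.37). Ifit3 was at 7.11 and 7.81 against 7.89 and 8.14, so all 3 Ifit genes were higher on both BRAF arrays by small gaps. Oas2 and Rtp4, called in BMDC, overlapped here, at 9.40 and 8.76 against 8.86 and 9.22 and at 8.26 and 8.50 against 8.07 and 9.08. The synthetases, GTPases, sensors and other effectors lay between -0.61 ± 0.44 (Mx1) and 0.34 ± 0.25 (Oasl1). All BRAF arrays were above all WT arrays for 7 members and below for 5, where 21.6% and 24.8% of all genes met these conditions, and the sign of the median was not stable (-0.03 to 0.23 without single arrays). All 7 Kupffer cell markers were positive in the same comparison (median 0.96), 3 of them higher on both BRAF arrays (21.6% of all genes). Their array means were 6.64 to 6.76 in WT and 6.45 to 9.26 in BRAF, with Cd5l below the filter level on both WT arrays. Of the alveolar macrophage markers 4 were positive and 2 negative (array means 6.93 to 7.64 in WT and 7.86 to 9.01 in BRAF). Of the classical monocyte markers 3 were positive and 2 negative (8.66 to 8.98 and 9.39 to 9.99). Of the 13 conventional dendritic cell markers 11 were negative (median -0.28), and 1 was called lower. The part of all these cells in the values was not tested.

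The WT populations differed in the level of the module. The group mean of a member was highest in WT liver for 26 of 40 members, against 31.9% of all genes, and lowest there for 0 (37.8%). It was lowest in WT BMDC for 20 (19.8%) and in WT lung CD103+ cells for 13 (15.8%). In the BRAF groups the highest mean lay in liver for 1 member (31.6% of all genes), in BMDC for 14 (33.1%) and in lung CD103+ cells for 15 (20.8%). Against WT lung CD11b+ cells, WT liver cells were called higher for 4 members (0.26% of all genes were called higher, 2.08% called in all): Cxcl9 by 2.86 ± 0.63 (adjusted p = 0.0333), Cxcl10 by 1.87 ± 0.41 (adjusted p = 0.0333), Ifit2 by 1.69 ± 0.37 (adjusted p = 0.0321) and Oasl1 by 1.05 ± 0.25 (adjusted p = 0.0403). These 4 calls were not kept as a set: 0 members were called without WT lung CD11b+ replicate 1 or 3 or without WT liver replicate 3, the array of narrow spread.

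Inside the lung, WT CD103+ cells had lower levels than WT CD11b+ cells for 7 called members, where 2.37% of all genes were called lower and 3.75% were called in all. Rtp4 stood at -2.50 ± 0.34 (adjusted p = 0.000541), Oas2 stood at -2.29 ± 0.33 (adjusted p = 0.0009), Gbp3, a guanylate-binding GTPase, at -2.0 ± 0.25 (adjusted p = 0.000254) and Ddx60 at -2.0 ± 0.38 (adjusted p = 0.00628). Ifit1, Ifit3 and Zbp1, a sensor of Z-form nucleic acid, were lower by 1.11 to 1.46. Mx1 and Mx2 stood at 0.78 ± 0.44 and 0.71 ± 0.41, so not every member was lower in CD103+ cells. The count was 4 without WT lung CD11b+ replicate 1 or 3 and 3 without WT lung CD103+ replicate 3. The range of a member's group means over the 4 populations had a median of 1.22 in WT and 0.96 in BRAF. It was smaller in BRAF for 27 members (67.5%) and for 73.5% of all genes, and without the 2 arrays of narrow spread for 30 members (75%) and 63.4% of all genes.

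The genes that feed the pathway were looked at by list, and none of their members was called in any of the 4 genotype contrasts. Of the interferon genes 9 were tested, and Ifnb1, below the filter level on all 18 arrays, was not among them. In BMDC all 9 were positive (50.4% of all genes), with a median of 0.39 and 1 at an unadjusted limma p under 0.05. All BRAF BMDC arrays were above all WT BMDC arrays for 0 of the 9 (6.99% of all genes). Values of this list without BRAF BMDC replicate 2, the array of narrow spread, were not examined. All 9 were also positive in lung CD11b+ cells (50.5% of all genes, median 0.41, 0 under 0.05). In liver 4 were positive and 5 negative (median -0.02), and in lung CD103+ cells 4 and 5 (median -0.05). Ifnab, an alpha-type interferon gene, had the smallest p, at 5.26 to 5.82 in WT BMDC and 5.74 to 6.58 in BRAF BMDC (0.55 ± 0.24, adjusted p = 0.711), levels close to the filter. Ifna9 stood at 0.39 ± 0.26 in BMDC and -0.64 ± 0.32 in liver, and Ifng, the type II interferon, at 0.04 ± 0.24 in BMDC and -0.50 ± 0.30 in lung CD103+ cells.

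The 6 receptor genes were all negative in BMDC and in CD11b+ cells of the lung (medians -0.19 and -0.26), with none under 0.05 unadjusted. Ifnar1, a chain of the type I receptor, stood at -0.12 ± 0.22 in BMDC and -0.07 ± 0.27 in liver, Ifngr2 at -0.59 ± 0.34 in BMDC, and Ifnlr1, of the lambda receptor, at -0.72 ± 0.38 in lung CD103+ cells. Of the transducers 4 were tested, and all 4 were negative in BMDC (median -0.48) and in lung CD11b+ cells (median -0.68). Jak2, the kinase of the gamma receptor, stood at -0.77 ± 0.29 in BMDC and -1.08 ± 0.36 in lung CD11b+ cells (adjusted p = 0.353), Tyk2 at -0.84 ± 0.47 in BMDC and Jak1 at -0.19 ± 0.26.

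Of 15 sensors and adaptors upstream of interferon, 4 were positive and 11 negative in BMDC. Tlr3, the endosomal RNA sensor, stood at 0.97 ± 0.27 in BMDC (adjusted p = 0.21) and -0.52 ± 0.32 in liver, the direction most members took. Tlr7 stood at 2.82 ± 0.77 in lung CD103+ cells, where its WT arrays were at 4.49 and 8.04, and Tlr9, the DNA sensor, was negative in all 4 populations, from -0.29 ± 0.37 in lung CD103+ cells to -1.33 ± 0.37 in lung CD11b+ cells. Of 9 negative regulators, 7 were negative in BMDC. Socs3 stood at -1.34 ± 0.36 in lung CD11b+ cells (adjusted p = 0.18), Socs1, an inhibitor of the receptor kinases, at -0.26 ± 0.22 in BMDC and -0.61 ± 0.27 in liver, and Ptpn11, a phosphatase, at -0.53 ± 0.30 in BMDC.

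A list of 27 further interferon-induced genes, also chosen with earlier results of these data known, was tested beside the module. Its median was 0.19 in BMDC (21 positive, 6 negative, with 50.4% of all genes positive). In liver it was -0.38 (5 positive, 22 negative, with 43.7% of all genes negative). In lung CD11b+ cells it was 0.11 (20 positive, 7 negative, with 50.5% of all genes positive). In lung CD103+ cells it was 0.18 (21 positive, 6 negative, with 35% of all genes positive). At an unadjusted limma p under 0.05, 4 were higher in BMDC (2.26% of all genes) and 9 were lower in liver (4.15%). In lung CD103+ cells 4 were higher at that level (2.39%). Gbp5, which builds guanylate-binding coats and primes inflammasomes, stood at -0.30 ± 0.18 in BMDC, -0.96 ± 0.22 in liver (adjusted p = 0.103), 0.58 ± 0.22 in CD11b+ and 0.83 ± 0.22 in CD103+ cells of the lung. Phf11d stood at 0.99 ± 0.31 in BMDC and -1.12 ± 0.38 in liver, and Trim34a at 0.70 ± 0.18 in BMDC and -0.14 ± 0.23 in liver. Plasmacytoid dendritic cells, known as strong producers of type I interferon, were followed by 8 measured markers: their array means in BMDC were 6.58 to 6.68 in WT and 6.82 to 7.03 in BRAF, with Ccr9 below the filter level on all 6 arrays, and in liver 6.98 on both WT arrays and 6.89 to 7.11 in BRAF. In BMDC 6 of the 8 were positive and 1, Cox6a2, was called, at no more than 7.34 on the WT arrays and at 10.20, 9.77 and 9.05 on the BRAF arrays (2.41 ± 0.34, adjusted p = 0.00404). In liver 4 of the 8 were positive and 4 negative (median -0.08). Both BRAF liver arrays were above both WT arrays for 1, Cox6a2 (1.05 ± 0.42, adjusted p = 0.295), against 22.7% of all genes. They were below both for 3, against 15.8% of all genes. The part of these cells in the results was not tested.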

How the data were processed

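RNA of 18 samples was measured on an Affymetrix mouse gene array. The deposited table holds 1 intensity per probe set and array on a linear scale; how the authors made these intensity values (background correction, normalization, summary of probes) was not given in the sources used here. Of 24922 probe sets, 21425 carry 1 gene symbol in the platform annotation, 1399 several and 2098 none. The deposited intensities were taken to log2 with no further normalization. A gene was tested if it exceeded the 30th percentile of the array for 2 or more arrays. A group-means model over all 18 arrays was fitted with limma 3.58.1 in R 4.3.3 (10 residual degrees of freedom) with Benjamini-Hochberg adjustment over 15365 genes; tables and plots were made with Python 3.11.15, pandas 2.3.3, numpy 2.4.6 and matplotlib 3.10.9. The scripts were tested on simulated data.

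The members and gene lists were chosen with earlier results of these data known. Named members are those called in any genotype contrast or in the difference between BMDC and liver, the 3 of smallest p in each contrast, and the transcription factors and chemokines; pathway genes are given as counts with up to 3 genes per list by smallest p, and other genes named with values were chosen after these were seen. Intervals of promoter shares are Wilson intervals at 95%. The alternatives were quantile normalization, median centring, other filters, the mean of probe sets, trend and robust variance, array weights, separate fits, the replicate number as a block, and leaving out arrays. Probe sets with several symbols or none were not analysed here.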

Additional observations from a re-analysis of the deposited data

Results flagged for a closer look

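The genotype difference was not the same in BMDC and liver CD11b+ cells, by the limma test of the difference of the contrasts, for 5 members. The gap between the BMDC and the liver difference was 3.87 on the log2 scale for Rtp4, 3.31 for Oas2, 3.16 for Ifit3, 2.86 for Ifit1 and 2.68 for Ifit2. The moderated F test over the 4 populations called 4 members. No group was large enough for a test of single outlying arrays.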

How the results depend on the processing

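No called value changed sign. Some uncalled ones did: the member median in lung CD11b+ cells (0.09) was -0.03 without BRAF replicate 2 and -0.15 with the replicate block, and single values of Irf1, Irf7, Irf9, Oas2, Rtp4 and Stat2 turned, as Rtp4 in lung CD11b+ cells from 0.20 to -0.31 without BRAF replicate 2. Of the alternatives for single genes 849 kept their side of the threshold, 48 lost a call and 16 gained one. Of the 55 results behind these counts, only 5 in BMDC, 1 in liver and 5 for BMDC against liver were called to begin with. A call could be lost only there, and most of the 849 were uncalled values that stayed uncalled. In BMDC, Ifit2 kept its call in 0 and Ifit3 in 1 of the 6 fits without single arrays, and Rtp4, Oas2 and Ifit1 in 6. The members called in BMDC numbered 3 with median centring and 3 to 9 without single arrays. They numbered 32 with array weights, which gave BRAF replicate 2 a weight of 0.109. In liver CD11b+ cells they numbered 4 with quantile normalization (median -1.08), and 0 with median centring, no filter, the mean of probe sets, trend and robust variance, array weights, only the groups compared or a random replicate block, and 0 to 6 without single arrays. Array weights called 1 member in lung CD11b+ cells, and the median in lung CD103+ cells was 0.17 to 0.85 without single arrays. For BMDC against liver, quantile normalization called 14 (median 1.66), array weights 2 and single arrays left out 2 to 14, and the median was 1.76 without the 2 arrays of narrow spread. For lung CD103+ cells against liver the counts were 5 with quantile normalization, 1 without those 2 arrays and 0 to 11 without single arrays. The F test called 1 with median centring, 8 with array weights, 2 with the random block and 1 to 5 without single arrays. For WT liver against WT lung CD11b+ cells the counts were 9 with quantile normalization, 2 with median centring, 0 with array weights, 0 without the 2 arrays and 0 to 4 without single arrays, and for WT lung CD103+ against CD11b+ cells 3 to 5 without single arrays. The share of all promoters with the response element core was 3.46% in the 250 bases before the start alone. The cause of these changes was not tested.

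The replicate numbers gave no clear pairing of the BMDC arrays. Same-numbered WT and BRAF BMDC arrays had correlations of deviations of 0.469, -0.231 and -0.399, and not every array correlated best with its own number. With 3 arrays per group the deviations within a group depend on each other, and BRAF replicate 2 had a narrow spread. These values therefore cannot settle whether the BMDC arrays are paired. Whether the numbers pair the 2 lung populations was not settled either. Same-numbered CD11b+ and CD103+ arrays had 0.159 for both WT numbers and 0.22 for both BRAF numbers. The labels do not say that these share an animal, and with 2 arrays a group both numbers must give the same correlation. With the replicate number as a block, 4 members were called in BMDC, 1 in liver (Isg20 in place of Rtp4), 9 for BMDC against liver, 4 by the F test, 3 for WT liver against WT lung CD11b+ cells and 6 for WT lung CD103+ against CD11b+ cells. Under the block the median was -0.88 for liver, -0.15 for the CD11b+ and 0.24 for the CD103+ cells of the lung. With 2 or 3 arrays per group, genes near the filter level, such as Mx2 and Ddx60, have little room to show a lower value.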
